A study of Mus musculus with 9 samples.

Results

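The genes described here are 10 markers of intestinal stem cells: Lgr5, Olfm4, Ascl2, Smoc2, Rnf43, Znrf3, Hopx, Bmi1, Lrig1 and Slc12a2. They were chosen by symbol, and all 10 were found among the 35013 gene symbols of each deposited expression table. Bulk RNA-Seq was performed on mRNA from 3 populations of small intestinal epithelial cells, with 3 biological replicates of each and 9 libraries in all. The populations were CD24negTomato+, CD24+Tomato+ and Tomatoneg cells, sorted after staining with antibodies against CD24 and Epcam. Every population came from mice of the genotype Neurog3Cre-FoxO1 f/f; Rosa26tdtomato, aged 4 to 6 weeks, so the Tomatoneg cells carried the floxed FoxO1 allele too. In these mice Cre, driven by Neurog3, deletes FoxO1 and switches on the Tomato reporter in Neurog3 progenitors and their descendants. No library from mice with intact FoxO1 was analysed here, so descent from Neurog3 progenitors and loss of FoxO1 cannot be told apart in any comparison below. Whether animals were pooled for a replicate is not given in the sources used here, so P values measure the spread between these libraries.

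The lining of the small intestine is renewed by crypt base columnar (CBC) stem cells, which lie between Paneth cells at the bottom of the crypt and depend on Wnt signals amplified by R-spondins. Lgr5, an R-spondin receptor, marks these cells, and Olfm4, Ascl2 and Smoc2 belong to the same signature. A slowly cycling or reserve state has been described with Hopx, Bmi1 and Lrig1, although these genes are also expressed by CBC cells, and Bmi1 and Slc12a2 are active in many other cells. Neurog3 marks progenitors of the secretory lineages, which leave the stem cell pool as they differentiate.

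In the GENCODE M21 annotation of mouse build GRCm38, Lgr5 lies on the minus strand at chr10:115450311-115587780, Olfm4 on the plus strand at chr14:79984081-80023139, and Ascl2 on the minus strand at chr7:142966829-142969264. Smoc2 is at chr17:14279506-14404790 (plus), Rnf43 at chr11:87662722-87735539 (plus) and Znrf3 at chr11:5276324-5444847 (minus). Hopx is at chr5:77086988-77115121 (minus), Bmi1 at chr2:18677018-18686629 (plus) and Lrig1 at chr6:94604529-94700158 (minus). The values are per gene and cover exons and UTRs together. Of the annotated exon bases, 412 of 1516 in Hopx overlap the antisense gene Hopxos, 153 of 2962 in Olfm4 overlap the noncoding gene Gm6999 and 144 of 5585 in Lrig1 overlap Slc25a26 on the other strand. Whether strand was used in counting is not given in the sources used here, so reads from these overlaps cannot be assigned with certainty.

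Promoter sequences are shown for Olfm4, Ascl2 and Lrig1, which were lower together in every CD24negTomato+ library, and for Hopx, which rose in the CD24+Tomato+ cells. RefSeq promoter entries matched 6 of the 10 genes, and up to 250 bases before the start were searched on both strands for short consensus motifs, as a description of these windows only. For TCF/LEF, the nuclear factors of the Wnt pathway, the letters were CTTTGA, held by 13.8% of 32851 promoters of the same length, or CTTTGT, held by 16.5%. For RBPJ, the nuclear factor of the Notch pathway, they were TGGGAA (21.6%), and for the intestinal factor CDX they were TTTATG (10.8%). The GATA motif was GATAAG (6.55%), the E-box was CAGCTG (13.0%) and the FoxO motif was TGTTTAC (3.17%). The windows are given 5′ to 3′ on the strand of the gene in GRCm38.p6, with annotated exons left off and capitals marking a motif match. They are chr14:80000052-80000250 (plus) for Olfm4, chr7:142969265-142969514 (minus) for Ascl2, chr6:94700159-94700395 (minus) for Lrig1 and chr5:77115124-77115373 (minus) for Hopx. The Olfm4 window belongs to a RefSeq start inside the GENCODE span of the gene given above. Another RefSeq start of Hopx had no bases left once annotated exons were taken off, so it is not printed.
Olfm4: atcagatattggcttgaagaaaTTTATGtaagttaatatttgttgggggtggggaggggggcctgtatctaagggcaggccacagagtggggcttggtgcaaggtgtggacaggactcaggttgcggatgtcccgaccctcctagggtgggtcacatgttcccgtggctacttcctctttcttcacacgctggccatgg
Ascl2: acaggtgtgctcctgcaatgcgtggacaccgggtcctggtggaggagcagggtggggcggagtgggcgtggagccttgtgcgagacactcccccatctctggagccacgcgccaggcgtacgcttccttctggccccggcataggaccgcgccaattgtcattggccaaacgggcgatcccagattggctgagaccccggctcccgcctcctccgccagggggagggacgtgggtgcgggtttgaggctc
Lrig1: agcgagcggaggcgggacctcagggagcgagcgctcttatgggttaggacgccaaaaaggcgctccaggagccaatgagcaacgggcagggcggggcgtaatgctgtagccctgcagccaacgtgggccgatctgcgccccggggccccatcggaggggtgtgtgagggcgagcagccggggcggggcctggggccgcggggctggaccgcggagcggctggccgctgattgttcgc
Hopx: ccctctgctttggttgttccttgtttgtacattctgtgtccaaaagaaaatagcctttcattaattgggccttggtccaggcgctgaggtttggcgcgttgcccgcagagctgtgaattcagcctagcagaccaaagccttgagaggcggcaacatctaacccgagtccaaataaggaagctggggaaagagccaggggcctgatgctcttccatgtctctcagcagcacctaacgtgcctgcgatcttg
The Olfm4 window held 1 match in the printed bases, the CDX motif TTTATG on the plus strand at 228 bases before the RefSeq start. A second match in its window, TGGGAA at 12 bases before the start, lies in an annotated exon and is not printed. None of the listed motifs was found in the Ascl2, Lrig1 and Hopx windows, which says only that these letters are not in these bases.

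Depth was estimated at 19158300 to 39234500 reads per library, and 3 reads corresponded to a normalized count of 2.10 to 4.29, a limit that covers counting error only. The authors scaled each Tomato+ population with the Tomatoneg libraries in a separate table, so levels were compared only within a table, and both comparisons share the Tomatoneg libraries. Tomatoneg replicate 1 stood apart, with 13025 genes above 0 against 15644 and 16008 in replicates 3 and 2, and results that change without it are given below. Foxo1, the deleted gene, had normalized counts of 467, 274 and 371 in CD24negTomato+ replicates 1, 2 and 3 and of 695, 518 and 424 in Tomatoneg. In the other table it was 319, 193 and 201 in CD24+Tomato+ and 748, 529 and 444 in Tomatoneg. The difference in the first table overlapped between groups (log2 fold change -0.56, limma adjusted P = 0.427), and that in the second did not overlap (-1.27, limma adjusted P = 0.0579, or 0.0219 with the replicate block). Transcripts of deleted alleles may still be counted in a value over the whole gene, and which exons are removed is not given in the sources used here. The sort was visible in Cd24a, which codes for CD24: it lay between 25857 and 30949 in CD24+Tomato+ and between 3170 and 5914 in Tomatoneg cells (log2 fold change 2.78, limma adjusted P = 0.003). In CD24negTomato+ libraries Cd24a was 993 to 2054, below the 2944 to 5782 of Tomatoneg (-1.37, limma adjusted P = 0.115, or 0.0133 with the block). Epcam, the epithelial surface marker, differed by 0.03 and -0.45 on the log2 scale and did not pass the test in either comparison (limma adjusted P = 0.962 and 0.343).

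CD24negTomato+ cells were first compared with Tomatoneg cells, to ask how much of the stem cell program these Neurog3-derived cells held. Lgr5, Olfm4, Ascl2 and Smoc2 were lower in every CD24negTomato+ library than in every Tomatoneg library, by 4.50-fold for Smoc2 to 16.4-fold for Ascl2 in the fit. Lrig1 was lower in every library too, while the other 5 genes, Rnf43, Znrf3, Hopx, Bmi1 and Slc12a2, overlapped. Of the 10 genes, Olfm4 fell past the threshold and none rose, where 0.32% of all 13420 genes tested fell and 0.999% rose (limma, adjusted P under 0.05). Groups that did not overlap, with all CD24negTomato+ libraries lower, were seen for 5 of the 10 genes and for 10.6% of all genes tested. The reverse was seen for 0 of the 10 genes and 14.7% of all genes. All 10 genes passed the filter on low values, a mean normalized count of at least 10 over the 6 libraries. Ascl2 passed through its Tomatoneg level alone, which fixed its direction, and it is part of the median and the counts of lower genes given here. The median log2 fold change was -0.55 over the 10 genes and 0.08 over all genes tested. Judged by unadjusted P under 0.05, 5 of the 10 genes were lower and 0 higher, against 6.82% and 10.3% of all genes. With the replicate number added to the fit as a block, 4 of the 10 genes fell and 0 rose, where 2.96% of all genes fell and 4.34% rose.

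Olfm4, a secreted glycoprotein abundant in CBC cells, had normalized counts of 1085, 1520 and 2811 in CD24negTomato+ replicates 1, 2 and 3 and of 7410, 24025 and 11999 in Tomatoneg. The highest CD24negTomato+ library lay below the lowest Tomatoneg library. Olfm4 fell by 2.95 on the log2 scale (SE 0.49, limma adjusted P = 0.0400), a 7.72-fold difference, and only 1.05% of tested genes had a lower fold change. The call was lost when any 1 library other than Tomatoneg replicate 1 was left out, with log2 fold changes of -3.33 to -2.50 and limma adjusted P of 0.0740 to 0.226. Ascl2, a transcription factor required for the CBC state, had normalized counts of 1.74, 3.42 and 11.8 in CD24negTomato+ cells and of 36.0, 124 and 146 in Tomatoneg cells. CD24negTomato+ replicate 1 lay under its limit of 3 reads (2.83), so the size of the difference depended on the pseudocount. The log2 fold change was -4.04 (SE 0.95) with a limma adjusted P of 0.0875, and 0.0417 with the replicate block. Only 0.283% of tested genes had a lower fold change. With pseudocounts of 0.1 and 10 the log2 fold change of Ascl2 was -4.35 and -2.71.

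Lgr5 had normalized counts of 49.4, 10.1 and 40.7 in CD24negTomato+ replicates 1, 2 and 3 and of 109, 306 and 157 in Tomatoneg. The groups did not overlap, and the widest gap was between the libraries of replicate 2. The log2 fold change was -2.61 (SE 0.74), the call was not made (limma adjusted P = 0.133), and the replicate block gave 0.102. Smoc2, a secreted calcium-binding matrix protein, had 198, 306 and 550 in CD24negTomato+ and 855, 1810 and 1983 in Tomatoneg. All 3 CD24negTomato+ libraries were below all 3 Tomatoneg libraries, and the log2 fold change of Smoc2 was -2.17 (SE 0.47, limma adjusted P = 0.0728, or 0.00856 with the replicate block). Without Tomatoneg replicate 1, Ascl2 (log2 fold change -4.66) and Smoc2 (-2.55) both passed beside Olfm4, with a limma adjusted P of 0.0277 for each. For Ascl2 the filter on low values had fixed the direction.

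Rnf43 and Znrf3 are related transmembrane ubiquitin ligases that remove Wnt receptors from the cell surface, an action that R-spondin and its receptors block. Rnf43 had normalized counts of 995, 489 and 704 in CD24negTomato+ and of 1059, 574 and 726 in Tomatoneg, so each library lay next to the one with the same number. Its log2 fold change was -0.12, with a 95% confidence interval of -0.95 to 0.71 (limma adjusted P = 0.887). For Znrf3 the counts were 75.5, 114 and 111 against 25.2, 118 and 58.3 in Tomatoneg. The groups overlapped at replicate 2, and the log2 fold change of 0.81 had an interval of -0.71 to 2.32 (limma adjusted P = 0.554).

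Among the genes described for reserve cells, Lrig1, a membrane protein that restrains ErbB growth factor receptors, had normalized counts of 676, 976 and 1195 in CD24negTomato+ and of 1208, 2136 and 2322 in Tomatoneg. The groups came close, at 1195 and 1208, without overlap. Lrig1 was lower by a log2 fold change of -0.97 (SE 0.34, limma adjusted P = 0.205), and it passed with the replicate block (0.0286). Hopx, a small homeodomain protein that does not bind DNA, had 1187, 1195 and 971 against 723, 1181 and 1020 in Tomatoneg. These values overlapped, and the interval of the log2 fold change of 0.22 ran from -0.40 to 0.84 (limma adjusted P = 0.704). Bmi1, a subunit of Polycomb repressive complex 1, had 279, 305 and 184 in CD24negTomato+, where the Tomatoneg libraries ranged from 53.5 to 301. The log2 fold change of Bmi1 was 1.03, with an interval of -0.45 to 2.51 (limma adjusted P = 0.444). Slc12a2, on the plus strand at chr18:57878678-57946821, codes for the basolateral sodium-potassium-chloride cotransporter that loads secreting cells with chloride. It had 2037, 2239 and 1735 in CD24negTomato+ and 1273, 3460 and 805 in Tomatoneg. CD24negTomato+ libraries lay within the range of the Tomatoneg libraries, and the interval of the log2 fold change of 0.39 was -0.76 to 1.53 (limma adjusted P = 0.724). In bulk samples such as these, fewer cells of a type and less RNA of a gene per cell cannot be told apart.

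**Figure D1:**
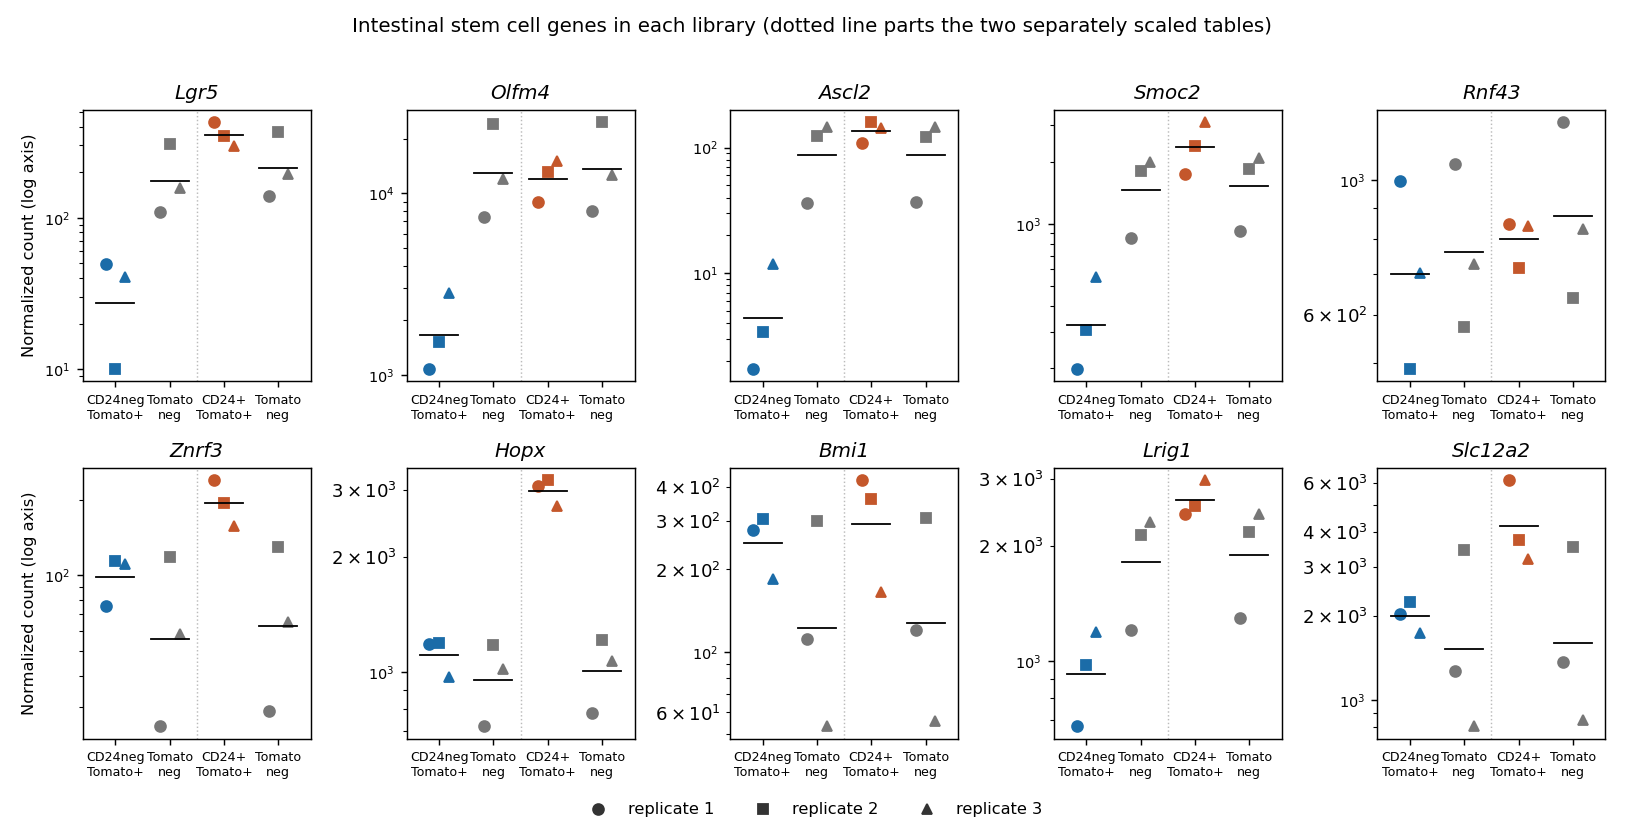
Normalized counts of the 10 stem cell genes in each library, on log axes, with 1 panel per gene. Symbols mark replicates 1 to 3, horizontal lines mark the mean on the log2(count + 1) scale, and the dotted line separates the tables, which were scaled separately and both hold the Tomatoneg libraries. Lgr5, Olfm4, Ascl2, Smoc2 and Lrig1 lie lower in every CD24negTomato+ library than in Tomatoneg libraries, while Hopx lies between 2720 and 3191 in CD24+Tomato+ cells, above all Tomatoneg libraries.

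CD24+Tomato+ cells were then compared with the same Tomatoneg libraries. Hopx rose 2.97-fold, and the other 9 genes did not pass the test, Lgr5, Olfm4, Ascl2 and Smoc2 among them. Of all 13874 genes tested, 8.02% rose and 4.89% fell, against 1 of the 10 stem cell genes that rose and 0 that fell (limma, adjusted P under 0.05). Judged by unadjusted P under 0.05, 3 of the 10 genes were higher and 0 lower, where 16.3% and 11.5% of all genes were. With the block, 3 of the 10 genes rose, where 10.8% of all genes rose and 9.95% fell. Every CD24+Tomato+ library was higher than every Tomatoneg library for 2 of the 10 genes, Hopx and Znrf3, and for 21.6% of all genes, and none of the 10 was lower in every library, against 14.4% of all genes. The median log2 fold change was 0.68 over the 10 genes and 0.16 over all genes.

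Hopx had normalized counts of 3070, 3191 and 2720 in CD24+Tomato+ replicates 1, 2 and 3 and of 781, 1212 and 1073 in Tomatoneg. The lowest CD24+Tomato+ library lay above the highest Tomatoneg library by more than the range within either group. The log2 fold change was 1.57 (SE 0.23, limma adjusted P = 0.00898), and 81.7% of tested genes had a lower one. Leaving out single libraries gave 1.39 to 1.70, and the call was lost without CD24+Tomato+ replicate 2 (1.52, limma adjusted P = 0.0729). Bmi1 had 425, 362 and 165 in CD24+Tomato+ and 120, 308 and 56.0 in Tomatoneg. Each CD24+Tomato+ library was above the Tomatoneg library of its number, but the groups overlapped, and the interval of the log2 fold change of 1.20 was -0.42 to 2.81 (limma adjusted P = 0.311). Lrig1 had 2426, 2548 and 2986 against 1297, 2179 and 2429 in Tomatoneg. The groups met at 2426 and 2429, and Lrig1 had a log2 fold change of 0.48 (SE 0.28, limma adjusted P = 0.312).

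Lgr5, Olfm4, Ascl2 and Smoc2 lay in the range of the Tomatoneg libraries or above it. Lgr5 had normalized counts of 427, 346 and 299 in CD24+Tomato+ and of 138, 368 and 193 in Tomatoneg. Only Tomatoneg replicate 2 reached the CD24+Tomato+ range, and the interval of the log2 fold change of 0.72 was -0.31 to 1.74 (limma adjusted P = 0.338). Olfm4 had 8908, 13133 and 14987 against 8003, 24649 and 12623 in Tomatoneg. The values of Olfm4 interleaved, with a log2 fold change of -0.17 and an interval of -1.18 to 0.84 (limma adjusted P = 0.834). Ascl2 had 109, 159 and 143 against 36.9, 121 and 146 in Tomatoneg. The groups overlapped, and the interval of its log2 fold change of 0.63 was -0.84 to 2.10 (limma adjusted P = 0.564). Smoc2 had 1742, 2387 and 3109 against 920.3, 1852 and 2080 in Tomatoneg. Each Smoc2 value exceeded that of the same-numbered Tomatoneg library, and the log2 fold change of 0.62 (SE 0.37) passed only with the replicate block (limma adjusted P = 0.321 without it and 0.0464 with it).

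Of the Wnt receptor ligases, Znrf3 had normalized counts of 239, 194 and 157 in CD24+Tomato+ and of 29.0, 129 and 65.4 in Tomatoneg. All 3 CD24+Tomato+ libraries were higher than all 3 Tomatoneg libraries, but the spread was wide and the log2 fold change of 1.61 (SE 0.63) was not called (limma adjusted P = 0.144). Rnf43 had 845, 716 and 840 in CD24+Tomato+, inside the Tomatoneg range of 640 to 1243. The interval of its log2 fold change of -0.13 was -0.81 to 0.56 (limma adjusted P = 0.816). Slc12a2 had 6162, 3751 and 3202 against 1370, 3537 and 844 in Tomatoneg. Tomatoneg replicate 2 lay inside the CD24+Tomato+ range and the other Tomatoneg libraries below it. The log2 fold change of Slc12a2 was 1.39 (SE 0.52, limma adjusted P = 0.131), and it passed with the replicate block (0.0464) and without Tomatoneg replicate 2 (1.96, limma adjusted P = 0.0307).

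**Figure D2:**
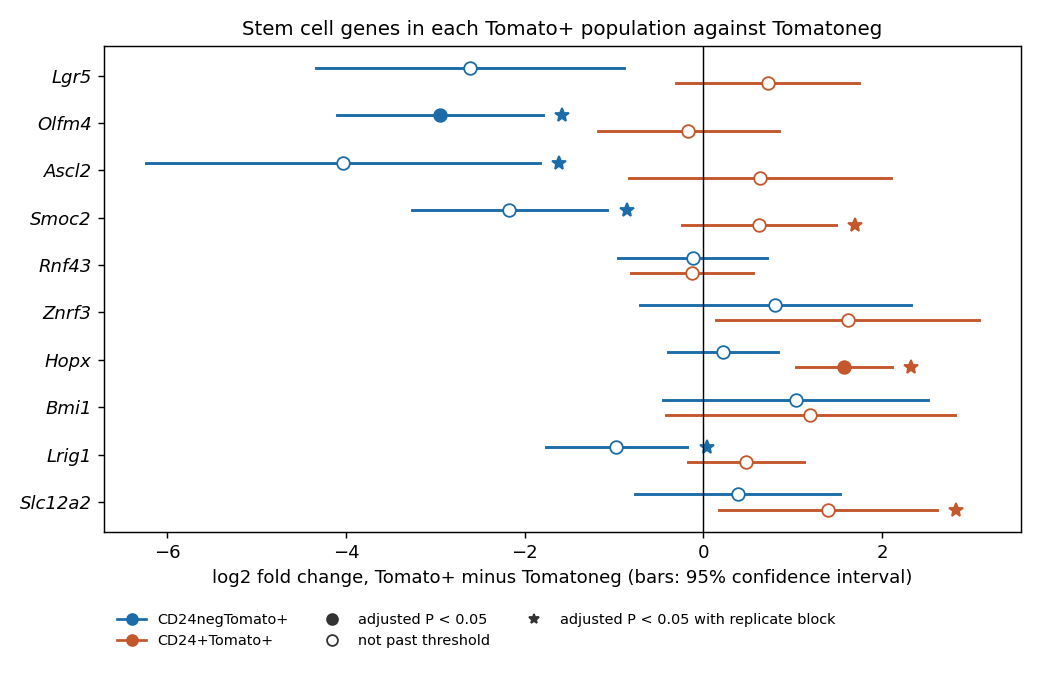
Log2 fold change of each stem cell gene against Tomatoneg cells, in CD24negTomato+ (blue) and CD24+Tomato+ (orange) cells, with 95% confidence intervals from limma. Filled points passed an adjusted P of 0.05, and stars mark genes that passed with the replicate block. Olfm4 at -2.95 in CD24negTomato+ and Hopx at 1.57 in CD24+Tomato+ are the filled points, and Lgr5, Ascl2, Smoc2 and Lrig1 lie below 0 in CD24negTomato+ and above 0 in CD24+Tomato+.

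The same Tomatoneg libraries had different values in the tables, and the ratio differed between genes. Over genes above a normalized count of 100, the ratio of the value in the CD24+Tomato+ table to that in the CD24negTomato+ table had a median of 1.08, 1.02 and 1.05 in Tomatoneg replicates 1, 2 and 3. For Lgr5 this ratio was 1.20 to 1.27, for Rnf43 1.11 to 1.17, for Znrf3 1.09 to 1.15 and for Ascl2 0.974 to 1.03. The other 6 genes lay close to the median of their library. The same library thus gave Lgr5 values that differed by up to 1.27-fold between tables. How far this bears on the fold changes of Lgr5 was not tested. In CD24+Tomato+ cells the log2 fold change of Lgr5 was 0.72, and 0.37 with quantile normalization.

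Other genes of the CBC signature were measured beside the 10. Of 14 such genes tested in CD24negTomato+ cells, 2 fell and 0 rose, with a median log2 fold change of -0.88. By unadjusted P 6 were lower and 1 higher. Of all genes tested, 0.32% fell and 0.999% rose, and by unadjusted P 6.82% were lower and 10.3% higher. Cdca7, a Myc-responsive nuclear protein, was 192, 205 and 253 in CD24negTomato+ and 941 to 1797 in Tomatoneg, and it fell by 2.69 on the log2 scale (SE 0.33, limma adjusted P = 0.0133). Msi1, an RNA-binding protein of stem and progenitor cells, was 54.4, 43.9 and 43.8 against 207 to 270 in Tomatoneg and fell by 2.31 (SE 0.41, limma adjusted P = 0.0473). In neither gene did the groups overlap. Most calls of lower genes in this comparison were lost when any 1 library other than Tomatoneg replicate 1 was left out. Fstl1, a secreted follistatin-like glycoprotein, went the other way without overlap, at 91.9, 108 and 62.4 in CD24negTomato+ against 3.86, 10.6 and 11.9 in Tomatoneg, and did not pass (log2 fold change 3.26, limma adjusted P = 0.0779). In this comparison Gkn3 and Mex3a passed the filter on low values through their Tomatoneg level alone. Fstl1 passed it through its CD24negTomato+ level alone. The filter fixed the direction of these genes, which are part of the median and the counts. Of the same 14 genes, 3 rose in CD24+Tomato+ cells and 0 fell, where 8.02% of all genes rose and 4.89% fell. Their median was 0.93. The shares of all genes in each comparison apply to the lists below too. Fstl1 rose to between 73.2 and 133 in CD24+Tomato+ libraries from between 5.99 and 18.0 in Tomatoneg (log2 fold change 3.03, limma adjusted P = 0.0325). Phlda1 rose by 1.56 and Soat1, which esterifies cholesterol, by 1.35 on the log2 scale (limma adjusted P = 0.0164 and 0.0301). The block added Cdk6 to the genes that fell in CD24negTomato+ cells (log2 fold change -1.70, limma adjusted P = 0.0405) and Prom1 to those that rose in CD24+Tomato+ cells (0.86, 0.0195).

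Wnt target and feedback genes were lower in CD24negTomato+ cells as point estimates in 10 of 10 genes tested, with a median log2 fold change of -1.15, but 0 passed the test in limma. Of all 13420 genes tested, 6058 had a negative fold change. Notum passed the filter on low values through its Tomatoneg level alone, which fixed its direction. By unadjusted P, 4 of the 10 were lower and 0 higher. With the replicate block 3 fell, namely Ccnd1, Ephb2 and Myc. Myc, the growth-promoting transcription factor, was 88.8, 162 and 278 in CD24negTomato+ and 392, 704 and 1055 in Tomatoneg (log2 fold change -2.06, limma adjusted P = 0.109, or 0.0144 with the block). Notum, a secreted enzyme that inactivates Wnt proteins, was 8.69, 2.0 and 0 against 45.9, 4.23 and 1.32 in Tomatoneg, values near the limit of detection, and did not pass (-1.43, limma adjusted P = 0.685). Among 11 Wnt targets tested in CD24+Tomato+ cells, 2 rose and 0 fell, where 8.02% of all genes rose and 4.89% fell. Their median was 0.18. Cd44, a receptor for hyaluronan, was 1601, 1364 and 943 in CD24+Tomato+ and 137, 521 and 385 in Tomatoneg, a rise of 2.07 on the log2 scale (SE 0.51, limma adjusted P = 0.0385). Sox9, a transcription factor needed for Paneth cells, was 1200, 1469 and 1289 against 315 to 460 in Tomatoneg, a rise of 1.76 (SE 0.25, limma adjusted P = 0.00806). With the block, Ephb3, an ephrin receptor that positions Paneth cells, passed as well (log2 fold change 2.47, limma adjusted P = 0.0161).

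Of 16 genes for Wnt and R-spondin receptors and the β-catenin machinery, 0 passed in either comparison (limma). The medians were -0.10 and -0.26, and by unadjusted P there were 2 higher and 3 lower in CD24negTomato+ and 1 higher and 2 lower in CD24+Tomato+ cells. With the block Csnk1a1 rose and Axin1 fell in CD24negTomato+ cells, and Axin1 and Fzd5 fell in CD24+Tomato+ cells. Lef1 and Tcf7, transcription factors of the Wnt pathway that lymphocytes also express, had log2 fold changes of -3.66 and -2.22 in CD24negTomato+ cells (limma adjusted P = 0.190 and 0.159). Lef1 was listed at 0, 1.45 and 4.12 there and at 85.1, 13.7 and 18.7 in Tomatoneg. Lef1 passed the filter on low values through its Tomatoneg level alone, which fixed its direction. Fzd5, a Wnt receptor of the epithelium, was 2018, 1085 and 1177 in CD24+Tomato+ and 2488 to 3914 in Tomatoneg, and its log2 fold change of -1.13 passed only with the block (limma adjusted P = 0.0515 without it and 0.00456 with it).

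Of the Notch pathway, 9 genes were tested in each comparison. Atoh1, the transcription factor that commits cells to the secretory lineages, rose in both populations, by 2.18 in CD24negTomato+ and 2.34 in CD24+Tomato+ on the log2 scale (limma adjusted P = 0.0164 and 0.00187). It was 1668 to 2789 in CD24negTomato+ against 437 to 569 in Tomatoneg, and 2546 to 2998 in CD24+Tomato+ against 458 to 582. In CD24negTomato+ cells it was the 1 gene called, and by unadjusted P 2 of the 9 genes were higher and 2 lower. In CD24+Tomato+ cells 4 were higher and 0 lower by unadjusted P. The Notch ligands Dll4 and Dll1 rose too in CD24+Tomato+ cells, by 2.22 and 1.22 (limma adjusted P = 0.00288 and 0.0422), and none fell. Dll4 was 2329, 2681 and 2937 in CD24+Tomato+ and 483 to 672 in Tomatoneg.

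Reserve, injury-responsive and fetal-like epithelial genes beside the 10 were mostly low. In CD24negTomato+ cells 6 of 10 passed the filter on low values and 0 passed the test in limma (1 higher and 0 lower by unadjusted P). Ly6a, the surface protein Sca-1 of regenerating epithelium, was 816, 853 and 677 in CD24negTomato+ and 300.1, 515 and 405 in Tomatoneg (log2 fold change 0.97, limma adjusted P = 0.155), and Krt15 had 0.97 as well with overlapping groups (limma adjusted P = 0.759). For CD24+Tomato+ cells 8 were tested, and Areg, the ErbB ligand amphiregulin, fell by 2.24 (limma adjusted P = 0.0327) from 182 to 472 in Tomatoneg to 44.1 to 68.6. None of these 8 genes rose, and Ccn1 rose with the block.

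Partners of single members were counted in the same way. Of 16 Polycomb subunits beside Bmi1, 0 passed in either comparison (limma), and by unadjusted P there were 0 higher and 1 lower in CD24negTomato+ and 2 higher and 0 lower in CD24+Tomato+ cells. Their medians were 0.01 and 0.23. The subunits with the largest differences were Suz12 (log2 fold change 1.25, limma adjusted P = 0.386) and Cbx2 (-0.98, 0.257) in CD24negTomato+, and Phc1 (1.27, 0.109) and Pcgf1 (0.81, 0.244) in CD24+Tomato+ cells. Of 11 ErbB receptors, ligands and inhibitors, the system that Lrig1 restrains, 0 passed in CD24negTomato+ cells (3 higher and 0 lower by unadjusted P), and Btc and Errfi1 rose with the block. Btc, the ligand betacellulin, was 319, 320.0 and 118 in CD24negTomato+ and 60.8, 34.3 and 10.6 in Tomatoneg (log2 fold change 2.97, limma adjusted P = 0.105, or 0.0266 with the block), and Egf had 2.07 (0.445). Of these 11, 2 fell in CD24+Tomato+ cells, the ligand Hbegf by 1.61 and the receptor Erbb2 by 1.11 (limma adjusted P = 0.0172 and 0.0245), and none rose. Of all genes tested there, 4.89% fell. Erbb3 fell too with the block.

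Of 10 genes that act with Slc12a2 in chloride secretion, 0 passed in CD24negTomato+ cells (1 higher and 2 lower by unadjusted P). The potassium channel genes Kcnn4, Kcnq1 and Kcne3 fell with the block. Kcnn4 was 279, 366 and 471 in CD24negTomato+ and 721, 904 and 1484 in Tomatoneg (log2 fold change -1.44, limma adjusted P = 0.0981, or 0.0208 with the block), and Kcnq1 had -1.28 (0.166, or 0.0302 with the block). Wnk4, a kinase that controls this family of cotransporters, rose in CD24+Tomato+ cells by 3.14 (SE 0.34, limma adjusted P = 0.00348), from 93.5 to 145 in Tomatoneg to 785 to 1096.

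**Figure D3:**
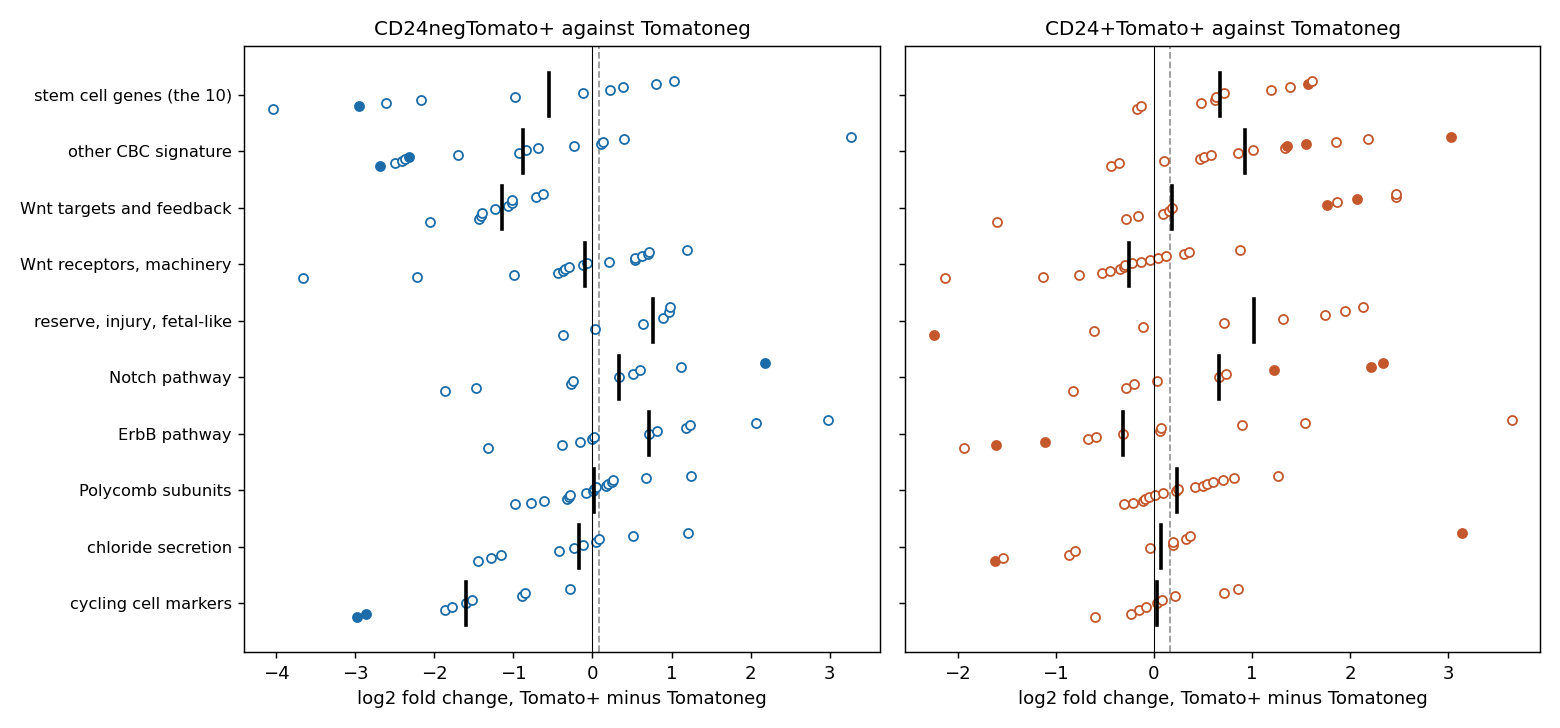
Log2 fold changes against Tomatoneg cells for the 10 stem cell genes, 8 related gene lists and markers of cycling cells, in CD24negTomato+ (left) and CD24+Tomato+ (right) cells. Each point is a gene, filled points passed an adjusted P of 0.05 in limma, short black bars are list medians and the dashed line is the median of all genes tested. The median of the Wnt targets was -1.15 in CD24negTomato+ and 0.18 in CD24+Tomato+ cells.

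Markers of other cell types differed between the populations too. In CD24negTomato+ cells 0.999% of all genes rose and 0.32% fell, and in CD24+Tomato+ cells 8.02% rose and 4.89% fell. Of 9 markers of cycling cells, 2 fell in CD24negTomato+ cells, Mcm2 and Mcm5, which unwind DNA for replication, and 0 rose. With the block 7 of these 9 fell. Together the 9 markers reached 3547 to 6291 in CD24negTomato+ libraries, below the 12019 to 15745 of the Tomatoneg libraries. In the CD24+Tomato+ comparison the sums were 12572 to 18262 and 12998 to 16586, and 0 of the 9 passed in limma (1 higher and 0 lower by unadjusted P). Markers of goblet cells rose in 7 of 7 genes in both populations, and those of enteroendocrine cells in 6 (8 with the block) and 8 of 8. Paneth markers rose in 6 of 6 and tuft markers in 6 of 8 genes (7 with the block) in CD24+Tomato+ cells. In CD24negTomato+ cells 3 of 7 tuft markers fell (6 with the block), and 0 of 6 Paneth markers passed in limma (0 higher and 4 lower by unadjusted P, and 3 fell with the block). Of 8 enterocyte markers, 0 passed in CD24negTomato+ cells (1 higher and 0 lower by unadjusted P, and 1 rose with the block). In CD24+Tomato+ cells 5 of the 8 fell, and with the block 8 fell and 0 rose. Some stem cell genes are also expressed by these cell types, and the part that the makeup of each population played in the results was not tested.

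Tomatoneg cells held RNA of immune cells. The 8 markers of T lymphocytes summed to 640 to 1241 in CD24negTomato+ libraries and to 3340 to 11544 in the Tomatoneg libraries, and 3 of 8 fell (5 with the block). In the other table CD24+Tomato+ libraries held 477 to 574, compared with 3597 to 11821 in Tomatoneg, and 7 of 8 fell. No T lymphocyte marker was at 0 in any library. Fibroblast markers summed to 107 to 319 in Tomatoneg and 60.2 to 124 in CD24negTomato+ libraries, and to 22.2 to 38.6 in CD24+Tomato+ libraries against 105 to 336, with Pdgfra listed at 0 in every CD24negTomato+ and CD24+Tomato+ library. Whether these cells contributed to the Tomatoneg levels of the stem cell genes was not tested.

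The genes whose pattern over libraries was most like that of Lgr5 were ranked by Pearson's r of log2(normalized count + 1) over the 6 libraries of each table, taking the lower of both r, among 13238 genes tested in both tables. The 5 highest were Clic6 (r of 0.932 in the CD24negTomato+ and 0.976 in the CD24+Tomato+ table), Inpp5d (0.939 and 0.925), Hnrnpa0 (0.909 and 0.911), Klhl23 (0.886 and 0.866) and Xpc (0.847 and 0.891). Both tables hold the Tomatoneg libraries, so these r are a description and not independent. Clic6, a chloride intracellular channel protein, was 354 to 418 in CD24negTomato+ cells against 552 to 959 in Tomatoneg cells, while in the other table CD24+Tomato+ libraries held 904 to 972 and the Tomatoneg libraries 594 to 981. Inpp5d, a lipid phosphatase best known from blood cells, was 23.2 to 62.7 against 103 to 310.0 in Tomatoneg, and 655 to 945 against 148 to 424 in the other table. Of the other 9 stem cell genes, Lrig1 ranked 70, Ascl2 105, Smoc2 227 and Olfm4 596, with lower r of 0.69, 0.66, 0.58 and 0.44. Znrf3 followed Lgr5 in the CD24+Tomato+ table (r of 0.964) but not in the CD24negTomato+ table (-0.29), and the same was true of Slc12a2, Hopx and Bmi1. Rnf43 had an r of 0.262 and -0.78.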

How the data were processed

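mRNA was enriched by poly-A pull-down and sequenced from 3 sorted mouse populations with 3 libraries each, grouped by the labels. The authors estimated gene counts with kallisto 0.44.0 (build GRCm38, per the submitters' processing notes) and deposited them as a normalized signal, divided by DESeq2 factors in 2 tables of 6 libraries. Of values under 30, only 14.9% to 34.6% were whole multiples (within 0.01) of the value taken as 1 read. Whole reads were thus not recovered, no count test was run, and depth is an estimate. No column was left unused (0).

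log2(normalized count + 1) was fitted with limma 3.58.1 in R 4.3.3 (lmFit, eBayes with trend) in each table alone, leaving out genes whose mean was under 10. Two-sided P values were adjusted over all genes tested (Benjamini-Hochberg, threshold 0.05), and confidence intervals are 95% and unadjusted. The limma fit was tested on simulated data with independent libraries and large changes, which does not cover paired libraries or smaller changes. Fold changes are on this log2 scale and understate the change of low genes.

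Replicate numbers come from the sample labels, which do not say whether a number marks shared mice or a shared sort. Deviations from group means correlated at 0.291 to 0.342 (CD24negTomato+ table) and 0.180 to 0.375 (CD24+Tomato+ table) between libraries of the same number. The numbers may therefore pair libraries, and a fit with the number as a block was run as an alternative. Calls, counts, intervals and ranks are from the fit without the block unless the block is named. That fit leaves out any pairing, and the block called more genes in both comparisons. Between others the correlations were -0.364 to -0.030. Deviations cancel out within a group, so these negative values follow from the positive ones and add no separate evidence. Values from fits with this number as a block are given beside the members and named genes whose call they changed and beside most list counts that they moved.

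The members and lists were chosen with earlier results of these data known. Named are all 10 members, up to 4 called genes of each list with the largest change (or the 2 largest where none was called), Foxo1, Neurog3, Cd24a and Epcam as checks, and the 5 genes most like Lgr5. Genes named in block results, marker lists and gene overlaps were added by their counts after values were seen. Alternatives were pseudocounts of 0.1 and 10, no filter and a mean of at least 50, equal library totals, quantile normalization, eBayes without trend, the block and single libraries left out. Summaries and figures were made in Python 3.11.15 (pandas 2.3.3, numpy 2.4.6, matplotlib 3.10.9). Promoters are from RefSeq (GRCm38.p6) and cover 250 bases before to 50 after the start. Proteins and the promoters of the other 4 genes were not analysed here. A result of the chloride secretion list is not reported here.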

Additional observations from a re-analysis of the deposited data

Results flagged for a closer look

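For 4 stem cell genes, every CD24negTomato+ library lay below the mean of the Tomatoneg libraries of its table and every CD24+Tomato+ library lay above it. The log2 fold changes were -2.61 in CD24negTomato+ and 0.72 in CD24+Tomato+ cells for Lgr5, -4.04 and 0.63 for Ascl2, -2.17 and 0.62 for Smoc2, and -0.97 and 0.48 for Lrig1. How many of all genes show this pattern was not counted, so whether it is unusual is not known. In CD24+Tomato+ cells all 4 genes overlapped Tomatoneg, and without the block none of the 4 passed in either comparison. The direction of Ascl2 in CD24negTomato+ cells was fixed by the filter on low values. No test was made of the difference between CD24negTomato+ and CD24+Tomato+ cells, since the tables were scaled separately and share the Tomatoneg libraries.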

How the results depend on the processing

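Of the recomputed fold changes of the stem cell genes, 257 kept their direction and their side of the threshold. Of the others, 8 passed it newly, 8 no longer passed it and 7 changed sign, and the cause was not tested. Most of the 257 were from comparisons in which the gene was not called above. No filter, the mean of at least 50, eBayes without trend and the block leave the fold change itself as it was. Those fits could change only the call. The changes of sign were of values that passed in no fit of their comparison. With single libraries left out, Rnf43 in CD24negTomato+ cells ranged from -0.37 to 0.14, above 0 without CD24negTomato+ replicate 2 or Tomatoneg replicate 1 (0.12), and Slc12a2 from -0.075 to 0.98, below 0 without Tomatoneg replicate 3. In the CD24+Tomato+ comparison Rnf43 ranged from -0.35 to 0.13, above 0 without Tomatoneg replicate 1, and Olfm4 from -0.55 to 0.26, above 0 without CD24+Tomato+ replicate 1 (0.05) or Tomatoneg replicate 2. Ascl2 there became -0.12 with quantile normalization. The call of Olfm4 in CD24negTomato+ cells was also lost with a pseudocount of 0.1 (limma adjusted P = 0.0545) and without the eBayes trend (0.0736), so 0 of the stem cell genes passed in that direction in either fit.

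With the replicate block, which pairs libraries by number, 4 of the stem cell genes fell in CD24negTomato+ and 3 rose in CD24+Tomato+ cells. Ascl2, whose direction the filter fixed, is among those 4. The block changed no other call of these 10 genes. Over all genes the block gave 582 higher and 397 lower genes in CD24negTomato+ and 1381 lower genes in CD24+Tomato+ cells. In CD24negTomato+ cells, where 134 genes were higher and 43 lower, a pseudocount of 10 gave 314 and 101. A pseudocount of 0.1 gave 19 lower genes, no filter gave 28, quantile normalization 92 and eBayes without trend 95. Equal library totals gave 98 higher and 60 lower genes there and moved the median of all genes by -0.20. In CD24+Tomato+ cells, where 1113 genes were higher and 678 lower, a pseudocount of 0.1 gave 731 higher and eBayes without trend 429 lower genes, and quantile normalization gave 904 and 824 and moved the median by -0.13.

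With single libraries left out, 8 to 535 genes were higher and 1 to 381 lower in CD24negTomato+ cells, with 0 to 3 of the stem cell genes lower. In CD24+Tomato+ cells 107 to 1564 were higher and 30 to 829 lower, with 0 to 2 of the stem cell genes higher. The highest counts of all genes came without Tomatoneg replicate 1. In CD24negTomato+ cells each of the other such fits gave 1 to 8 lower genes, against 43 with all libraries. Most calls of lower genes were thus lost in them, and which genes of the lists kept theirs is not given here. A fit with 2 libraries in a group assumes that they vary like the other group.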

Other observations

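Neurog3, the driver of Cre, was measured as a check of the sort. It had normalized counts of 14.6, 19.6 and 41.2 in CD24negTomato+ replicates 1, 2 and 3 and of 80.2, 123 and 147 in Tomatoneg, without overlap (log2 fold change -2.26, limma adjusted P = 0.126). In the other table Neurog3 was 1319, 1345 and 1364 in CD24+Tomato+ and 102, 149 and 182 in Tomatoneg, and it rose by 3.25 on the log2 scale (SE 0.31, limma adjusted P = 0.00231).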
